A study of Mus musculus with 15 samples.

Results

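Cholesterol synthesis, uptake and export were described through 34 genes that act on cellular sterols, all found among the 27179 gene IDs of a count table from mouse CD4 T cells. The genes were chosen by name and role, with earlier results of these data known. They are 5 regulators of the SREBP transcription factors, 18 enzymes of sterol synthesis, 5 genes of sterol transport and esterification, and 6 genes of the LXR nuclear receptors, sterol export and oxysterol production. Messenger RNA was sequenced from 15 libraries, 5 per condition, for T helper cells of the kinds Th1, Th17 and Tfh, the follicular helper cells that assist B cells. All started from naive CD4 T cells of the genotype B6.Cg-Ifngtm3.1Lky-Il17atm1.1Lky that were grown for 3.5 days on plates coated with antibodies to CD3 and CD28, each kind in its own polarising condition, and then sorted by flow cytometry. By their allele names, both altered alleles are reporters of the cytokines IFN-γ and IL-17A, and every group carries them. Sorting took the IFN-γ positive cells for Th1 and, for Tfh, those with CXCR5 and without IL-17A. The sources used here do not give the Th17 gate, the polarising agents or the age of the mice. The series asks how T cells choose between the Tfh and Th17 fates. No label ties the libraries of a condition to separate mice or cultures. The p-values therefore speak of the spread between these libraries alone, part of which may be technical.

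Cells make cholesterol from acetyl-CoA through mevalonate, farnesyl diphosphate, squalene and lanosterol. When sterols in the endoplasmic reticulum run low, Scap carries the SREBP precursors, encoded by Srebf1 and Srebf2, to the Golgi, where proteases release a transcription factor that drives most genes of synthesis and uptake. Insig1 and Insig2 hold Scap back when sterols are plentiful. Excess sterol is esterified by Soat1 or Soat2 for storage, and oxysterols activate the LXR receptors Nr1h2 and Nr1h3, which drive the export pumps Abca1 and Abcg1 and the ligase Mylip, which targets lipoprotein receptors for degradation. Activated T cells are known to raise SREBP-driven synthesis and to lower LXR signalling as they enter division.

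Promoter sequences are shown because the synthesis genes are textbook targets of SREBP, whose binding site, the sterol regulatory element, often lies near a CCAAT box bound by NF-Y and a GGGCGG box bound by Sp1. RefSeq windows of the GRCm38.p6 assembly were found for 27 of the 34 genes, and the 250 bases before each start were searched on both strands. These starts are those of the windows and can lie within the gene bounds given below, as for Lss and Abca1. Hmgcs1 and Abca1 were chosen by rule, as the synthesis gene whose window holds the element TCACNCCAC and as an export gene. Lss and Insig1 were added after their expression values were seen, Lss as the synthesis enzyme with the largest fold difference between Tfh and Th17 among those called and Insig1 as the regulator called in that comparison. The sequences read 5′ to 3′ on the gene's strand, and capitals mark TCACNCCAC or CCAAT on either strand (CCAAT on the opposite strand reads ATTGG).
Hmgcs1 chr13:119690101-119690350 (plus strand): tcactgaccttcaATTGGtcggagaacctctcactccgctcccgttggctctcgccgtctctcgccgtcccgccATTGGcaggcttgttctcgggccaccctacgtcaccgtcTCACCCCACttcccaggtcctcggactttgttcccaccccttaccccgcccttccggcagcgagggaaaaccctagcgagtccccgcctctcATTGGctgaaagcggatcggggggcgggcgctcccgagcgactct
Lss chr10:76531355-76531604 (plus strand): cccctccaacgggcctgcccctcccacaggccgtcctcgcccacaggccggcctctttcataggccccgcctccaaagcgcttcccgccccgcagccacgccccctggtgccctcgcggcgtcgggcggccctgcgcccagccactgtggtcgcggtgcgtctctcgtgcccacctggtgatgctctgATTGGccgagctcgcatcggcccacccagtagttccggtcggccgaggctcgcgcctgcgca
Insig1 chr5:28071162-28071411 (plus strand): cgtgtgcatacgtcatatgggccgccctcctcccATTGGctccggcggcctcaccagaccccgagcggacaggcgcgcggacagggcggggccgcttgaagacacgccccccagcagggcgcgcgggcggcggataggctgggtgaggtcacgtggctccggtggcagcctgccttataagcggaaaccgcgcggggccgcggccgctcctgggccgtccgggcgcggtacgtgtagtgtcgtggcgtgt
Abca1 chr4:53159896-53160145 (minus strand): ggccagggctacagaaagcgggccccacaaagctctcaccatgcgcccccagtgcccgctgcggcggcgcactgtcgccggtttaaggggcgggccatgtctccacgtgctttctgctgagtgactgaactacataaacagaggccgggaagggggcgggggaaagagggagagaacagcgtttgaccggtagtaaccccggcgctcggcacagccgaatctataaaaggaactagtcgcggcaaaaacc
The Hmgcs1 window holds 3 CCAAT boxes and 1 sterol regulatory element that begins 137 bases before the start. The Lss and Insig1 windows hold 1 CCAAT box each and the Abca1 window holds none. The spelling TCACNCCAC is in neither the Lss, the Insig1 nor the Abca1 window. Among the 15 synthesis enzymes with a window, 14 had a CCAAT box (93.3%), the exception being Acat2, against 40.8% of the 9626 tested genes with a window. GGGCGG was in 14 of the 15 (93.3%) against 64.1% of tested genes. The E-box CACGTG was in 3 of the 15 against 10.01%. TCACNCCAC was in 1 of the 15 (6.67%) against 1.23%. Other spellings of the sterol regulatory element were not searched, so whether windows without TCACNCCAC hold an SREBP site was not tested. For LXR, only 1 exact spelling of its direct repeat was searched, and it was in no window of a tested gene. That spelling was rare, in 4 of all 27025 genes with a window. Variants of the repeat were not searched, so whether these windows, that of Abca1 included, hold an LXR site was not tested. None of the motifs searched contains another, and a match of letters is a description and not a bound site.

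Total counts ran from 4871468 in Tfh replicate 1 to 25200382 in Th1 replicate 3. Levels are CPM, which divide a gene's counts by the library's total, here scaled with edgeR's TMM factors, and means are given ± SD of 5 libraries. Of the 34 genes, 32 passed edgeR's default filter on low counts and were tested with 12591 genes in all. A gene was called where its Benjamini-Hochberg adjusted p over all genes tested was under 0.05 in edgeR's quasi-likelihood test. Fold changes are log2 values with their standard error, and the 3 comparisons share groups. The genes that the sorts acted on followed the labels: Ifng was at 839.9 ± 136 CPM in Th1, Il17a at 225 ± 24.4 in Th17 and Cxcr5 at 169 ± 14.2 in Tfh. Cd3e was at 559 ± 143, 855 ± 141 and 1292 ± 288 CPM in Th1, Th17 and Tfh, and Cd4 at 593 ± 117, 551 ± 72.00 and 552 ± 30.2. Both come from a list of 8 T cell genes. In Tfh against Th17, 3 of these were higher and 1 lower, where 6.8% and 9.98% of all genes were. In Tfh against Th1, 5 were higher and 1 lower, where 24.1% and 25.2% were. In Th17 against Th1, 4 were higher and none lower, where 19% and 17.8% were. Tfh replicate 1 stood apart on the second principal component of log2 CPM, at 94.0 against -0.98 to 12.1 for the other Tfh libraries, so counts are also given without it. In bulk RNA, fewer cells of a type and less RNA per cell cannot be told apart.

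In Tfh cells most enzymes of sterol synthesis were at lower mRNA levels than in both other conditions, while the esterifying enzyme Soat1 and the lysosomal transporter Npc1 were higher. Tfh against Th17, 14 of the 32 tested members were lower, 2 were higher and 16 were not called, where 16.8% of all genes tested were called (9.98% lower and 6.8% higher). Their median log2 fold change was -0.59, against -0.01 over all genes tested. Tfh against Th1, 14 were lower, 4 higher and 14 not called, against 49.3% of all genes called (25.2% lower and 24.1% higher), with a median of -0.45 against -0.01. Th17 against Th1, 10 were lower, 4 higher and 18 not called, against 36.9% of all genes called (17.8% lower and 19% higher), with a median of -0.04 against 0.03. The libraries of the compared conditions did not overlap for 15, 16 and 11 of the 32 members, where 14.5%, 34.3% and 28.8% of all genes did not. Without Tfh replicate 1, 17, 18 and 14 members were called in these comparisons, against 16, 18 and 14 with it.

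**Figure D1:**
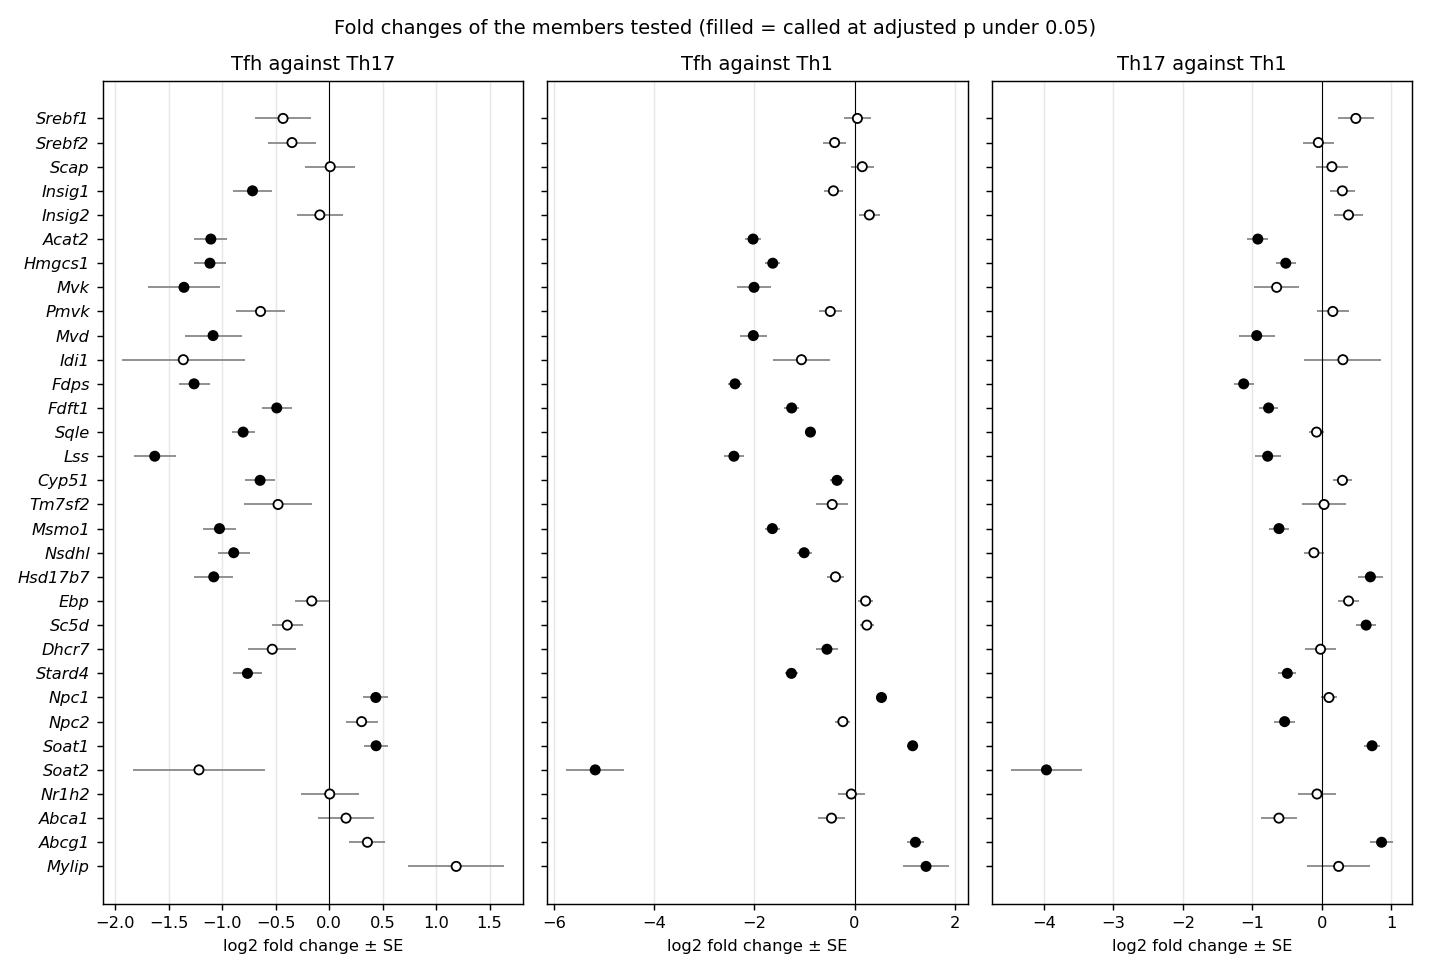
Log2 fold change ± SE of the 32 tested members in Tfh against Th17, Tfh against Th1 and Th17 against Th1, each panel with its own scale. Filled points passed the test at an adjusted p under 0.05, and the synthesis enzymes from Acat2 to Dhcr7 all lie below 0 in Tfh against Th17.

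Of the 18 synthesis enzymes, 12 were lower and none higher in Tfh against Th17, where 9.98% of all genes were lower. All 18 had a fold change below 0, with a median of -0.96. Tfh against Th1, 12 were again lower and none higher, where 25.2% of all genes were lower. The median was -1.03, and 16 of the 18 fold changes were below 0. Th17 against Th1, 7 were lower and 2 higher, with a median of -0.10, where 17.8% of all genes were lower and 19% higher. The summed level of the 18 enzymes was 2221 ± 108 in Th1 (2126 to 2341), 1847 ± 59.6 in Th17 (1777 to 1923) and 1090 ± 37.6 CPM in Tfh (1031 to 1133), so the ranges of the 3 conditions did not overlap. Without Tfh replicate 1, 13, 12 and 7 of the 18 were lower in Tfh against Th17, Tfh against Th1 and Th17 against Th1.

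The 7 enzymes up to farnesyl diphosphate held 5 of the lower calls in each comparison of Tfh and 4 in Th17 against Th1. Of all genes, 9.98%, 25.2% and 17.8% were lower in Tfh against Th17, Tfh against Th1 and Th17 against Th1. Acat2 encodes the cytosolic thiolase that joins acetyl-CoA units (gene ID 110460, chromosome 17, 12943042 to 12960725) and was at 83.3, 107, 113, 100.3 and 92.05 CPM in Th1 replicates 1 to 5, 50.2, 49.01, 60.8, 60.2 and 41.6 in Th17 and 27.8, 24.4, 25.6, 26.1 and 17.98 in Tfh. The 3 conditions did not overlap, with Th1 highest and Tfh lowest. Its log2 fold change was -1.10 ± 0.15 (adjusted p = 6.19e-05) in Tfh against Th17, -2.03 ± 0.16 (adjusted p = 3.84e-09) in Tfh against Th1 and -0.92 ± 0.15 (adjusted p = 7.57e-05) in Th17 against Th1. Hmgcs1, which makes HMG-CoA (gene ID 208715, chromosome 13, 119690351 to 119708260), was at 231, 228, 154, 162 and 209 CPM in Th1 replicates 1 to 5, 170.5, 129, 135, 109.6 and 141 in Th17 and 58.8, 71.2, 61.9, 58.1 and 66.98 in Tfh. All Tfh libraries lay below all others, while Th1 and Th17 overlapped. The log2 fold change came to -1.11 ± 0.15 (adjusted p = 4.05e-05) against Th17 and -1.63 ± 0.15 (adjusted p = 4.37e-08) against Th1, and -0.52 ± 0.15 (adjusted p = 0.00839) in Th17 against Th1.

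Mvk, the mevalonate kinase (gene ID 17855, chromosome 5, 114444264 to 114460591), was at 10.8, 20.4, 31.7, 24.3 and 14.3 CPM in Th1 replicates 1 to 5, 10.7, 9.42, 12.2, 18.3 and 14.2 in Th17 and 1.74, 4.94, 4.08, 6.27 and 7.80 in Tfh. The Tfh libraries were the 5 lowest, and Th1 and Th17 overlapped. It differed by -1.36 ± 0.34 (adjusted p = 0.00958) in Tfh against Th17 and -2.01 ± 0.34 (adjusted p = 8.35e-05) against Th1, and was not called in Th17 against Th1, at -0.65 ± 0.32 (adjusted p = 0.127). Mvd, the decarboxylase that yields isopentenyl diphosphate (gene ID 192156, chromosome 8, 122433596 to 122443422), was at 46.7, 80.7, 104, 105 and 54.8 CPM in Th1 replicates 1 to 5, 38.2, 25.7, 43.7, 54.9 and 41.7 in Th17 and 18.4, 10.3, 21.2, 26.9 and 19.2 in Tfh. Tfh overlapped Th17 through Tfh replicate 4, but no Tfh library reached a Th1 library. It was lower at -1.08 ± 0.27 (adjusted p = 0.00843) in Tfh against Th17, -2.02 ± 0.27 (adjusted p = 5.67e-06) in Tfh against Th1 and -0.94 ± 0.26 (adjusted p = 0.00817) in Th17 against Th1. Fdps makes farnesyl diphosphate, the branch point to sterols, ubiquinone and prenyl groups (gene ID 110196, chromosome 3, 89093588 to 89101967), and was at 312, 397, 492, 413 and 314 CPM in Th1 replicates 1 to 5, 156, 151, 191, 207 and 177 in Th17 and 79.3, 73.2, 67.97, 84.3 and 64.02 in Tfh. The 3 conditions did not overlap, and Th1 was highest. In log2 terms the difference was -1.26 ± 0.14 (adjusted p = 9.05e-06) in Tfh against Th17, -2.39 ± 0.15 (adjusted p = 2.17e-10) in Tfh against Th1 and -1.13 ± 0.14 (adjusted p = 4.77e-06) in Th17 against Th1.

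Pmvk and Idi1, which phosphorylate mevalonate phosphate and isomerise isopentenyl diphosphate, were not called in any comparison. Pmvk was at 10.7 to 24.4 CPM in Th1, 14.7 to 24.6 in Th17 and 9.48 to 17.01 in Tfh, with a fold change of -0.64 ± 0.23 (adjusted p = 0.0651) in Tfh against Th17, which passed the test without Th1 replicate 1, Th17 replicate 2 or Tfh replicate 1. Idi1 was at 3.87 to 12.96 CPM in Th1, 4.53 to 17.6 in Th17 and 0 to 5.93 in Tfh, with -1.36 ± 0.58 (adjusted p = 0.12) in the same comparison, and its count in Tfh replicate 1 was 0. Reads of several of these genes could be split with near-identical copies, since the sources used here do not say how reads matching several genes were counted. Of all 50-base words in the annotated transcripts, 86.4% in Fdps, 45.9% in Acat2, 21.3% in Idi1 and 10.9% in Fdft1 also occur in transcripts of other genes, in Acat2 those of Acat3, against at most 2.49% in each other member. Of the 34 members, 11 also overlap another annotated gene, among them Srebf1 with Rai1 and Tm7sf2 with Vps51, and without a stated strand setting their reads cannot be told apart from those of the partner.

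From farnesyl diphosphate to lanosterol, all 3 enzymes were lower in Tfh than in each other condition. Of all genes, 9.98% were lower in Tfh against Th17 and 25.2% in Tfh against Th1. Fdft1, the squalene synthase (gene ID 14137, chromosome 14, 63145150 to 63181687), was at 141, 189, 209, 187 and 156 CPM in Th1 replicates 1 to 5, 104, 86.9, 115, 113 and 99.4 in Th17 and 80.8, 56.9, 67.6, 83.5 and 80.6 in Tfh. The conditions did not overlap. The difference was -0.49 ± 0.14 (adjusted p = 0.0226) in Tfh against Th17, -1.26 ± 0.14 (adjusted p = 7.64e-07) in Tfh against Th1 and -0.77 ± 0.14 (adjusted p = 0.000284) in Th17 against Th1, and the first of these calls was lost without Th17 replicate 3, Th17 replicate 4, Tfh replicate 2 or Tfh replicate 3. Fdft1 overlaps Ctsb in the annotation. Sqle, the squalene epoxidase (gene ID 20775, chromosome 15, 59315092 to 59331193), was at 164, 179, 166, 178 and 197 CPM in Th1 replicates 1 to 5, 167, 176, 175, 163 and 157 in Th17 and 110.4, 86.9, 94.4, 101 and 87.8 in Tfh. Th1 and Th17 overlapped and all Tfh libraries were lower. It differed by -0.80 ± 0.11 (adjusted p = 4.4e-05) from Th17 and -0.88 ± 0.11 (adjusted p = 1.77e-06) from Th1, and Th17 against Th1 gave -0.08 ± 0.11 (adjusted p = 0.611). Lss, the cyclase that closes the sterol ring system and whose promoter is shown above (gene ID 16987, chromosome 10, 76531565 to 76557139), was at 49.9, 56.96, 63.4, 55.4 and 57.8 CPM in Th1 replicates 1 to 5, 30.6, 24.2, 30.7, 42.6 and 36.9 in Th17 and 6.57, 10.2, 12.3, 14.4 and 9.29 in Tfh. The conditions did not overlap, and the highest Tfh library was below the lowest Th17 library. Lss was 3.09-fold lower in Tfh than in Th17 (log2 -1.63 ± 0.20, adjusted p = 1.49e-05) and 5.31-fold lower than in Th1 (log2 -2.41 ± 0.20, adjusted p = 1.25e-08), and Th17 was 1.72-fold lower than Th1 (log2 -0.78 ± 0.19, adjusted p = 0.00292).

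Of the 8 enzymes from lanosterol to cholesterol, 4 were lower in Tfh against Th17 and 4 in Tfh against Th1. Of all genes, 9.98% and 25.2% were lower in these comparisons. Th17 against Th1 held 1 lower and 2 higher, where 17.8% of all genes were lower and 19% higher. Msmo1, the sterol methyl oxidase (gene ID 66234, chromosome 8, 64718123 to 64733578), was at 326, 293, 228, 223 and 299 CPM in Th1 replicates 1 to 5, 195, 213, 177, 131 and 176 in Th17 and 76.6, 96.1, 103, 77.04 and 86.2 in Tfh. The conditions did not overlap. Its fold change was -1.02 ± 0.15 (adjusted p = 0.000116) in Tfh against Th17, -1.64 ± 0.15 (adjusted p = 5.63e-08) in Tfh against Th1 and -0.62 ± 0.15 (adjusted p = 0.00294) in Th17 against Th1. Nsdhl, the dehydrogenase of the same demethylation (gene ID 18194, chromosome X, 72918521 to 72958528), was at 118, 120.01, 124, 94.7 and 102 CPM in Th1 replicates 1 to 5, 77.7, 117, 119, 98.00 and 104 in Th17 and 40.98, 62.2, 64.9, 54.5 and 54.8 in Tfh. Tfh lay below both other conditions, which overlapped each other. It differed by -0.89 ± 0.15 (adjusted p = 0.000396) from Th17 and -1.01 ± 0.15 (adjusted p = 1.92e-05) from Th1, with -0.12 ± 0.15 (adjusted p = 0.586) in Th17 against Th1.

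Hsd17b7, the ketoreductase that completes this demethylation (gene ID 15490, chromosome 1, 169949535 to 169969242), had another order and was highest in Th17. It was at 73.7, 78.8, 55.5, 63.9 and 64.6 CPM in Th1 replicates 1 to 5, 132, 102, 107, 91.7 and 112 in Th17 and 33.4, 52.1, 62.3, 40.8 and 68.9 in Tfh. Th17 did not overlap either other condition, while Tfh and Th1 overlapped. The fold change was -1.08 ± 0.18 (adjusted p = 0.00037) in Tfh against Th17, 0.70 ± 0.18 (adjusted p = 0.00453) in Th17 against Th1 and -0.38 ± 0.18 (adjusted p = 0.0858) in Tfh against Th1. Sc5d, a sterol desaturase of the final steps (gene ID 235293, chromosome 9, 42251592 to 42264300), was also higher in Th17 than in Th1. It was at 169, 149, 113, 99.5 and 128 CPM in Th1 replicates 1 to 5, 224, 219.5, 215, 177 and 188 in Th17 and 143, 159, 163, 134 and 181 in Tfh. Th17 lay above Th1 in every library and overlapped Tfh. The fold change was 0.64 ± 0.14 (adjusted p = 0.00185) in Th17 against Th1, -0.39 ± 0.14 (adjusted p = 0.073) in Tfh against Th17 and 0.25 ± 0.14 (adjusted p = 0.169) in Tfh against Th1.

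Cyp51, the lanosterol demethylase (gene ID 13121, chromosome 5, 4080674 to 4104697), was at 184 to 252 CPM in Th1, 205 to 299 in Th17 and 149.8 to 224 in Tfh, with overlap between all conditions. It was lower in Tfh against Th17, at -0.64 ± 0.14 (adjusted p = 0.00384). Against Th1 it was -0.35 ± 0.14 (adjusted p = 0.0484), a call that was lost in 12 of 26 alternative settings, among them those without Th1 replicates 1, 2 or 5, Th17 replicates 1 or 2, or Tfh replicates 2, 3, 4 or 5. Dhcr7, which reduces the last precursor to cholesterol (gene ID 13360, chromosome 7, 143823167 to 143848410), was at 49.3 to 134 CPM in Th1, 72.6 to 117 in Th17 and 50.3 to 83.5 in Tfh. The log2 fold change came to -0.55 ± 0.22 (adjusted p = 0.0496) in Tfh against Th1, -0.53 ± 0.22 (adjusted p = 0.12) in Tfh against Th17 and -0.02 ± 0.22 (adjusted p = 0.956) in Th17 against Th1. The first of these calls was lost in 14 of the 26 settings, among them those without Th1 replicates 2, 3 or 4, Th17 replicates 1, 2 or 5, or Tfh replicates 1, 2, 3 or 5. Tm7sf2 and Ebp, a sterol reductase and a sterol isomerase, were not called in any comparison. Tm7sf2 was at 10.4 to 26.5 CPM in Th1, 13.5 to 23.5 in Th17 and 5.41 to 19.6 in Tfh, and Ebp at 67.1 to 119.8 CPM in Th1, 106 to 140.03 in Th17 and 85.04 to 127 in Tfh.

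**Figure D2:**
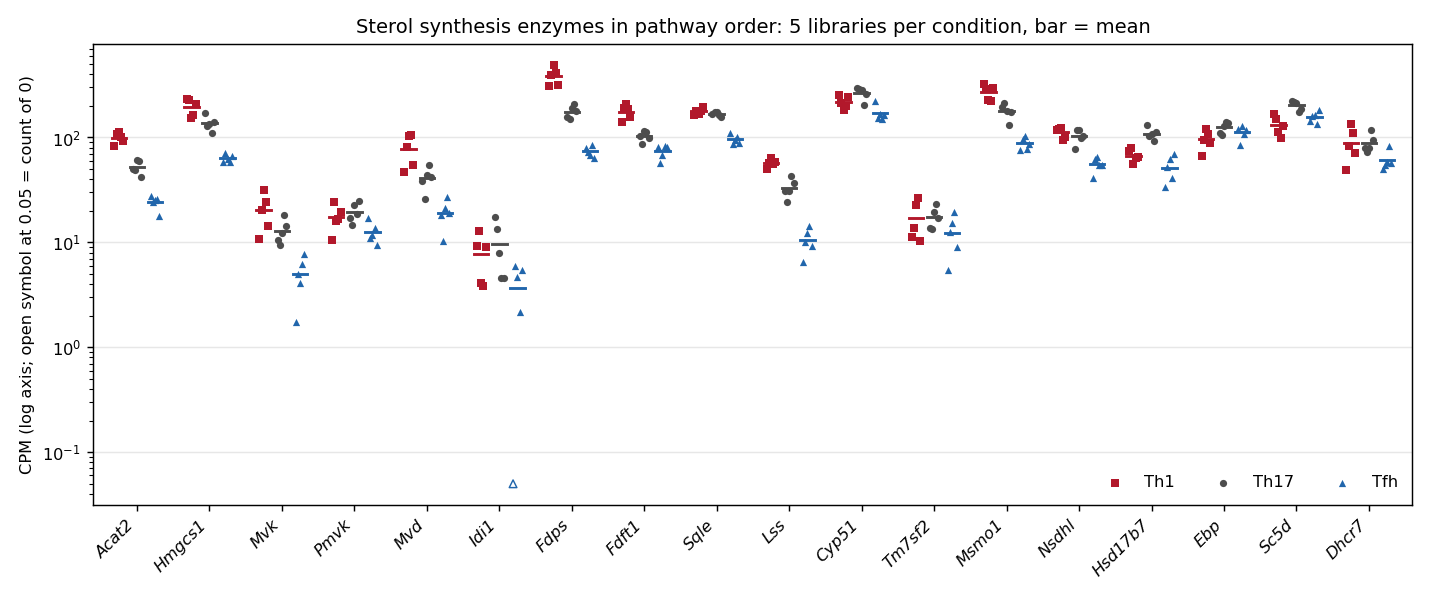
Level in CPM on a log axis of the 18 synthesis enzymes in pathway order, with 1 symbol per library (5 per condition) and bars at the condition means. Tfh libraries are the lowest for Acat2, Hmgcs1, Mvk, Fdps, Fdft1, Sqle, Lss, Msmo1 and Nsdhl, and Th17 is the highest for Hsd17b7 (the open symbol is a count of 0 for Idi1 in Tfh replicate 1, drawn at 0.05).

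Genes of proliferation moved with the synthesis enzymes in Tfh cells. Of a list of 15, 14 were lower in Tfh against Th17 and none higher, with a median of -1.13, where 9.98% of all genes were lower. In Tfh against Th1, 13 were lower and 1 higher, with a median of -0.70, where 25.2% of all genes were lower and 24.1% higher. Their summed level was 2023 to 2873 CPM in Tfh, 4426 to 5298 in Th17 and 3633 to 4295 in Th1. In Th17 against Th1, 6 of them were higher and none lower, where 19% of all genes were higher and 17.8% lower. In that comparison 7 synthesis enzymes were lower and 2 higher. The part of the proliferation genes in the result was not tested.

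Of the 5 SREBP regulators, 1 was called, Insig1 in Tfh against Th17, and none was called in Tfh against Th1 or Th17 against Th1. Of all genes tested, 16.8%, 49.3% and 36.9% were called in these comparisons. Insig1, which retains Scap in the endoplasmic reticulum and is itself a target of SREBP (gene ID 231070, chromosome 5, 28071412 to 28078662), was at 79.6, 107, 134, 139 and 102 CPM in Th1 replicates 1 to 5, 116, 125, 136, 159 and 154 in Th17 and 60.1, 60.2, 96.97, 97.4 and 105 in Tfh. Every Tfh library was below every Th17 library, and Th1 overlapped both. In log2 terms the difference was -0.72 ± 0.19 (adjusted p = 0.0119) in Tfh against Th17, -0.42 ± 0.19 (adjusted p = 0.0678) in Tfh against Th1 and 0.29 ± 0.18 (adjusted p = 0.234) in Th17 against Th1. Insig2, its paralog, was at 21.2 to 37.1 CPM in Th1, 24.9 to 45.2 in Th17 and 25.3 to 43.1 in Tfh, with -0.09 ± 0.21 (adjusted p = 0.836) in Tfh against Th17.

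Srebf1, which encodes the SREBP most tied to fatty acid genes (gene ID 20787, chromosome 11, 60199084 to 60224186), was at 53.3, 79.01, 142, 144 and 83.3 CPM in Th1 replicates 1 to 5, 108, 94.4, 127, 220.2 and 154 in Th17 and 88.3, 84.05, 101, 141 and 108 in Tfh. Srebf2, which encodes the SREBP most tied to cholesterol genes (gene ID 20788, chromosome 15, 82147269 to 82205379), was at 205, 264, 446, 474 and 300.3 CPM in Th1 replicates 1 to 5, 256, 276, 312, 434 and 354 in Th17 and 187, 207, 258, 359 and 272 in Tfh. Both spread widely within each condition and overlapped between all. Srebf1 differed by -0.43 ± 0.26 (adjusted p = 0.302) in Tfh against Th17, 0.06 ± 0.26 (adjusted p = 0.876) in Tfh against Th1 and 0.49 ± 0.26 (adjusted p = 0.162) in Th17 against Th1. For Srebf2 the values were -0.35 ± 0.22 (adjusted p = 0.333), -0.40 ± 0.22 (adjusted p = 0.152) and -0.05 ± 0.22 (adjusted p = 0.884) in the same order. Scap (gene ID 235623, chromosome 9, 110333288 to 110384949) was at 38.4 to 91.6 CPM in Th1, 56.4 to 102 in Th17 and 49.2 to 95.6 in Tfh, with 0.01 ± 0.23 (adjusted p = 0.985) in Tfh against Th17.

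The spread of these regulators went with the GC content of their transcripts, which was 58.4% in Srebf1, 57.9% in Srebf2 and 59.1% in Scap, against a median of 50.1% over tested genes. Across 11528 genes, Spearman's rho between transcript GC and a library's deviation from its condition's mean was 0.71 in Th1 replicate 3, 0.71 in Th1 replicate 4, 0.71 in Th17 replicate 4 and 0.57 in Tfh replicate 4, and it was lowest in Th1 replicate 1, at -0.66. Genes are not independent, so this only describes the libraries. For Srebf1, Srebf2, Scap and Nr1h2, these 4 libraries held the highest values of their conditions. With a correction for GC content in each library, Srebf1 was lower in Tfh than in Th17 (-0.42 ± 0.11, adjusted p = 0.0085) and higher in Th17 than in Th1 (0.51, adjusted p = 0.0009), and Srebf2 was lower in Tfh than in Th17 (-0.36 ± 0.11, adjusted p = 0.0146) and than in Th1 (adjusted p = 0.0039). With it, 24 members were called in Tfh against Th17, 21 in Tfh against Th1 and 18 in Th17 against Th1. Of the synthesis enzymes, 16, 13 and 8 were lower. Calls over all genes rose as well. Of the 12591 genes tested, 3494, 7255 and 5787 were called with the correction in these comparisons, against 2113, 6206 and 4642 without it. With it, 1716, 3640 and 2892 of all genes were lower.

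Transport and esterification genes went in both directions. Stard4, a soluble carrier of sterols between membranes and a target of SREBP (gene ID 170459, chromosome 18, 33199138 to 33213862), was at 123, 105, 90.4, 101 and 122 CPM in Th1 replicates 1 to 5, 81.6, 79.3, 84.5, 60.9 and 76.7 in Th17 and 50.3, 44.8, 41.2, 41.9 and 47.8 in Tfh. The conditions did not overlap, with Th1 highest and Tfh lowest. The difference was -0.76 ± 0.13 (adjusted p = 0.0005) in Tfh against Th17, -1.26 ± 0.13 (adjusted p = 2.62e-07) in Tfh against Th1 and -0.50 ± 0.13 (adjusted p = 0.00524) in Th17 against Th1. Npc1, the membrane protein that moves cholesterol out of lysosomes (gene ID 18145, chromosome 18, 12189694 to 12236506), was at 66.2, 66.7, 78.5, 78.3 and 62.8 CPM in Th1 replicates 1 to 5, 72.2, 76.3, 76.6, 80.2 and 73.01 in Th17 and 87.8, 109, 99.3, 101 and 114 in Tfh. All Tfh libraries lay above all others. It was higher by 0.44 ± 0.12 (adjusted p = 0.0135) against Th17 and 0.54 ± 0.12 (adjusted p = 0.000821) against Th1, and Th17 against Th1 gave 0.10 ± 0.12 (adjusted p = 0.537). Npc1 overlaps Rmc1 in the annotation. Npc2, its soluble partner (gene ID 67963, chromosome 12, 84754559 to 84773112), was at 550.5 to 889 CPM in Th1, 425 to 619 in Th17 and 526 to 694 in Tfh. It was lower in Th17 than in Th1, at -0.54 ± 0.15 (adjusted p = 0.00811), with overlap, and not called in Tfh against Th17, at 0.30 ± 0.15 (adjusted p = 0.183), or Tfh against Th1, at -0.23 ± 0.15 (adjusted p = 0.207).

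Of the pair of enzymes that esterify cholesterol, Soat1 was lower and Soat2 higher in Th1 than in both other conditions. Soat1 (gene ID 20652, chromosome 1, 156428108 to 156474328) was at 58.4, 67.99, 67.8, 59.97 and 59.01 CPM in Th1 replicates 1 to 5, 113, 103, 101, 106 and 94.1 in Th17 and 115, 144, 149, 148 and 145 in Tfh. The conditions did not overlap, with Tfh highest and Th1 lowest. Its fold change was 0.44 ± 0.11 (adjusted p = 0.0109) in Tfh against Th17, 1.16 ± 0.11 (adjusted p = 1.12e-07) in Tfh against Th1 and 0.72 ± 0.11 (adjusted p = 5.35e-05) in Th17 against Th1. Soat2, best known from liver and intestine (gene ID 223920, chromosome 15, 102150415 to 102163469), was at 11.4, 14.9, 15.5, 20.1 and 14.9 CPM in Th1 replicates 1 to 5, 0.117, 0.953, 1.10, 0.942 and 1.66 in Th17 and 1.16, 0.565, 0, 0.299 and 0.395 in Tfh. The Th1 libraries were all at 11.4 CPM or more and the others all at 1.66 or less. Soat2 was 36.2-fold lower in Tfh than in Th1 (log2 -5.18 ± 0.58, adjusted p = 5.98e-07) and 15.6-fold lower in Th17 than in Th1 (log2 -3.96 ± 0.51, adjusted p = 5.47e-06), and Tfh against Th17 gave -1.22 ± 0.62 (adjusted p = 0.201). The counts behind these levels were 994 in Th1, 52 in Th17 and 17 in Tfh, summed over 5 libraries each.

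Per kilobase of transcript, Soat2 made up 47.8 ± 5.12% of Soat1 plus Soat2 in Th1 (42.4 to 56.0), 3.46 ± 2.09% in Th17 (0.391 to 6.25) and 1.39 ± 1.39% in Tfh (0 to 3.68). Several markers of other cell types also had higher levels in Th1. Of 16 myeloid and dendritic cell markers, 13 had a count in some library and 2 passed the filter, and their summed level was 13.3 to 29.6 CPM in Th1, 2.21 to 7.26 in Th17 and 2.86 to 5.83 in Tfh. Cd68 and Zbtb46 made up most of it, and the markers without a count in any library were Spi1, Csf3r and S100a8. Of 7 B cell markers, 6 had a count in some library, all but Pax5, and Ebf1 alone passed the filter. Their summed level was 13.9 to 25.0 CPM in Th1, 1.05 to 3.74 in Th17 and 0 to 3.58 in Tfh. The 7 markers of CD8, NK and gamma-delta T cells found summed to 63.7 to 88.6 CPM in Th1, 13.5 to 26.6 in Th17 and 14.3 to 32.6 in Tfh, led by Trdc and Klrk1 in Th1. Their part in the Soat2 result was not tested.

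Of the 6 genes of the LXR receptors, export and oxysterols, 4 were tested. None was called in Tfh against Th17, where 16.8% of all genes were called. Tfh against Th1, 2 were higher, where 24.1% of all genes were higher, and Th17 against Th1, 1 was higher, where 19% were. Abcg1, a pump that moves sterols to lipoproteins (gene ID 11307, chromosome 17, 31057694 to 31117984), was at 18.9, 21.95, 19.2, 19.8 and 21.4 CPM in Th1 replicates 1 to 5, 33.1, 40.2, 36.6, 45.1 and 28.4 in Th17 and 41.8, 67.2, 43.95, 42.7 and 39.7 in Tfh. Th1 lay below both other conditions, and Th17 and Tfh overlapped. The log2 fold change came to 1.22 ± 0.17 (adjusted p = 9.3e-06) in Tfh against Th1, 0.86 ± 0.17 (adjusted p = 0.000546) in Th17 against Th1 and 0.36 ± 0.17 (adjusted p = 0.163) in Tfh against Th17. Mylip, the ligase that marks lipoprotein receptors for degradation (gene ID 218203, chromosome 13, 45389742 to 45411940), was at 5.05, 2.22, 2.16, 2.21 and 1.19 CPM in Th1 replicates 1 to 5, 0.585, 4.76, 4.08, 2.26 and 3.14 in Th17 and 8.51, 5.79, 7.76, 6.27 and 5.73 in Tfh. All Tfh libraries lay above all others, at low levels. It was higher in Tfh than in Th1 by 1.43 ± 0.45 (adjusted p = 0.0136). Against Th17 the fold change was 1.19 ± 0.45 (adjusted p = 0.0782), which did not pass the test although the libraries did not overlap. The alternatives DESeq2, limma-voom and a GC correction did call Mylip in Tfh against Th17. Th17 against Th1 gave 0.24 ± 0.45 (adjusted p = 0.721). Abca1, a pump that moves cholesterol to apolipoproteins (gene ID 11303, chromosome 4, 53030789 to 53159988), was at 40.6, 19.6, 15.4, 18.2 and 32.8 CPM in Th1 replicates 1 to 5, 20.02, 21.3, 13.00, 11.6 and 16.3 in Th17 and 20.5, 18.8, 17.5, 12.9 and 22.03 in Tfh. Its highest values were in Th1 replicates 1 and 5, all conditions overlapped, and no comparison was called, with 0.16 ± 0.27 (adjusted p = 0.75) in Tfh against Th17, -0.46 ± 0.26 (adjusted p = 0.16) in Tfh against Th1 and -0.62 ± 0.26 (adjusted p = 0.0757) in Th17 against Th1.

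Nr1h2, which encodes LXRβ (gene ID 22260, chromosome 7, 44549616 to 44553968), was at 44.99 to 103 CPM in Th1, 41.3 to 109 in Th17 and 55.5 to 96.7 in Tfh, and its fold change was 0.01 ± 0.27 (adjusted p = 0.993) in Tfh against Th17 and -0.06 ± 0.27 (adjusted p = 0.863) in Tfh against Th1. Nr1h3, which encodes LXRα (gene ID 22259, chromosome 2, 91184061 to 91202829), did not pass the filter, with 15, 36 and 44 counts summed over the Th1, Th17 and Tfh libraries and 0 to 20 in a single library. It overlaps Acp2 in the annotation. Ch25h, the hydroxylase that makes an oxysterol from cholesterol (gene ID 12642, chromosome 19, 34473783 to 34475148), did not pass it either, with 2, 17 and 20 counts in the 3 conditions. At these counts Nr1h3 and Ch25h were not tested.

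**Figure D3:**
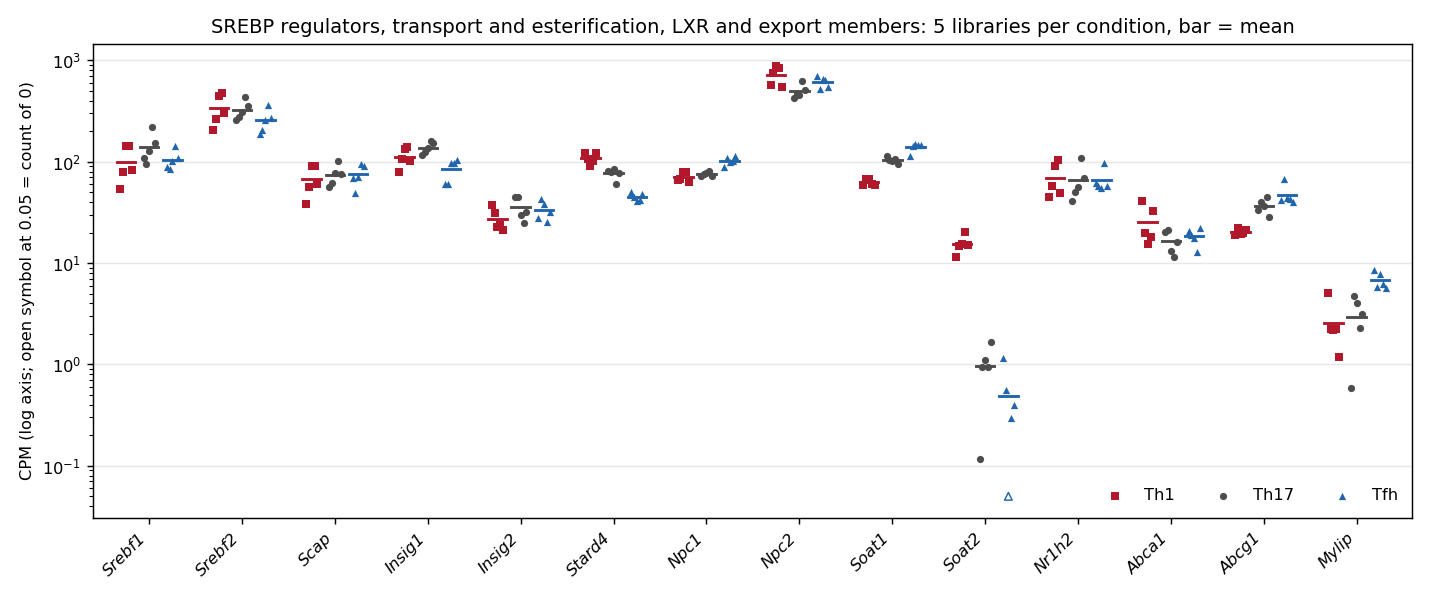
Level in CPM on a log axis of the regulators, transport and esterification genes and tested LXR and export genes, with 1 symbol per library (5 per condition) and bars at the condition means. Soat1 is highest and Stard4 lowest in Tfh, Soat2 is at 11.4 CPM or more in Th1 and at 1.66 or less elsewhere, and the Tfh values of Mylip lie above all others (the open symbol is a count of 0 for Soat2 in Tfh replicate 3, drawn at 0.05).

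Synthesis was set against export in each library as the mean log2 CPM of the 18 enzymes minus that of Abca1, Abcg1 and Mylip. This difference was 2.90 ± 0.44 in Th1 (2.14 to 3.25), 2.56 ± 0.41 in Th17 (1.98 to 3.11) and 1.00 ± 0.32 in Tfh (0.51 to 1.36), as mean ± SD of 5 libraries. Every Tfh library lay below every Th1 and Th17 library, and Th1 and Th17 overlapped. The synthesis mean was 6.31 ± 0.13 in Th1, 6.10 ± 0.07 in Th17 and 5.17 ± 0.21 in Tfh, and the export mean was 3.42 ± 0.33, 3.54 ± 0.37 and 4.17 ± 0.15. Of the genes in the export mean, Mylip is a ligase and not a pump. In Tfh against Th17 none of them was called, and Mylip had the largest log2 fold change, at 1.19, against 0.36 for Abcg1 and 0.16 for Abca1. In Tfh against Th1 the values were 1.43, 1.22 and -0.46, the last not called. Th1 replicate 1, whose export mean was 3.999, and Th17 replicate 2, at 4.02, fell within the Tfh range of 3.94 to 4.30 for export, but not for synthesis. Without Idi1 and Mylip, whose means over all libraries were under 10 CPM, the difference was 2.06 in Th1, 1.68 in Th17 and 0.54 in Tfh. These scores are over genes chosen with earlier results known and are given without a test.

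**Figure D4:**
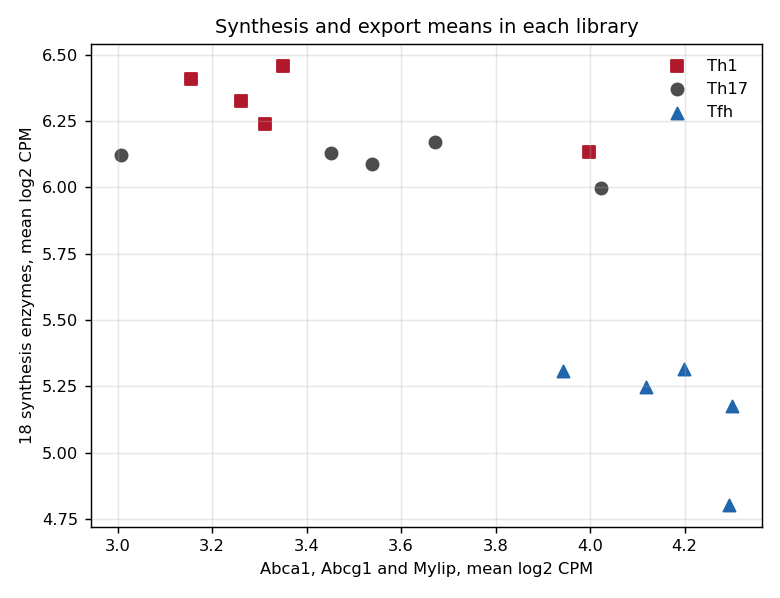
Mean log2 CPM of the 18 synthesis enzymes against that of Abca1, Abcg1 and Mylip, with 1 symbol per library. The 5 Tfh libraries sit between 4.80 and 5.31 on the synthesis axis and the other 10 between 5.999 and 6.46, while on the export axis the conditions overlap.

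Of 42 further genes of sterol metabolism listed for this comparison, 39 were tested. Tfh against Th17, 3 were higher and 9 lower, with a median of -0.14, where 16.8% of all genes were called. Tfh against Th1, 8 were higher and 15 lower, with a median of -0.10, against 49.3% of all genes called. Th17 against Th1, 3 were higher and 11 lower, with a median of -0.06, against 36.9%. Among 7 genes of SREBP processing and degradation, none was called in Tfh against Th17. Tfh against Th1, Spring1, which supports SREBP processing, was higher by 0.77 ± 0.21 (adjusted p = 0.00502).

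Of 9 enzymes of sterol and isoprenoid branches, 4, 5 and 3 were lower in Tfh against Th17, Tfh against Th1 and Th17 against Th1, and none was higher. Of all genes tested, 9.98%, 25.2% and 17.8% were lower in these comparisons. Erg28, a scaffold of sterol demethylation, averaged 170.3 ± 11.4 in Th1, 131 ± 11.8 in Th17 and 78.7 ± 13.8 CPM in Tfh. In log2 terms the difference was -0.73 ± 0.13 (adjusted p = 0.000638) in Tfh against Th17 and -1.11 ± 0.13 (adjusted p = 1.08e-06) in Tfh against Th1. Pdss1, which makes the tail of ubiquinone, was lower in Tfh than in Th17, at -0.80 ± 0.24 (adjusted p = 0.0289). Acat1, the mitochondrial thiolase, was lower in Tfh than in Th1, at -1.21 ± 0.18 (adjusted p = 1.44e-05), and Coq2, of ubiquinone synthesis, was lower in Th17 than in Th1, at -0.48 ± 0.17 (adjusted p = 0.0376).

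Of 13 lipoprotein receptors and sterol carriers, 4 were lower and 1 higher in Tfh against Th17, and 7 were lower and 3 higher in Tfh against Th1. Of all genes, 9.98% were lower and 6.8% higher in Tfh against Th17, and 25.2% and 24.1% in Tfh against Th1. The gene higher in Tfh against Th17 was Lipa, the lysosomal acid lipase that frees cholesterol from lipoprotein esters. Lipa averaged 31.3 ± 5.53 in Th1, 54.5 ± 7.61 in Th17 and 92.7 ± 15.2 CPM in Tfh. The difference was 0.77 ± 0.16 (adjusted p = 0.00207) in Tfh against Th17, 1.57 ± 0.16 (adjusted p = 1.8e-07) in Tfh against Th1 and 0.80 ± 0.16 (adjusted p = 0.000522) in Th17 against Th1. Scarb1, a receptor for high-density lipoprotein, was lower in Tfh than in Th17, at -1.08 ± 0.23 (adjusted p = 0.00314), as was Gramd1b, a carrier of cholesterol from the plasma membrane, at -0.96 ± 0.20 (adjusted p = 0.00195). The receptors Lrp1 and Vldlr were highest in Th1, and Vldlr was also lower in Tfh than in Th17. Lrp1 was at 22.2 ± 3.81 CPM in Th1 and 0.804 ± 0.253 in Th17 (log2 -4.74 ± 0.51, adjusted p = 6.7e-07), and its 9 counts in Tfh all came from 1 library. Vldlr averaged 28.5 ± 5.85 in Th1, 8.63 ± 3.05 in Th17 and 1.57 ± 1.67 CPM in Tfh, with -4.09 ± 0.53 (adjusted p = 3.54e-06) in Tfh against Th1. Tfh against Th17 gave -2.37 ± 0.51 (adjusted p = 0.00337), with overlap between the libraries.

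Of 13 LXR partners, targets and genes of oxysterol metabolism, 10 were tested. In Tfh against Th17, 2 were higher and 1 lower, where 6.8% of all genes were higher and 9.98% lower. Arl4c, a small GTPase and LXR target, averaged 142 ± 62.6 in Tfh, 52.98 ± 7.59 in Th17 and 62.96 ± 13.9 CPM in Th1, with 1.42 ± 0.23 (adjusted p = 0.000256) in Tfh against Th17. Ncor1, a corepressor of nuclear receptors, was higher in Tfh than in Th17 by 0.41 ± 0.11 (adjusted p = 0.0115) and than in Th1 by 0.78 ± 0.11 (adjusted p = 7.37e-06). Gpr183, the receptor by which lymphocytes migrate towards oxysterols, averaged 203 ± 14.4 in Th1, 131 ± 19.8 in Th17 and 53.9 ± 12.9 CPM in Tfh. It was lower, at -1.28 ± 0.17 (adjusted p = 3.62e-05) in Tfh against Th17, -1.91 ± 0.17 (adjusted p = 3.01e-08) in Tfh against Th1 and -0.63 ± 0.16 (adjusted p = 0.00497) in Th17 against Th1. Rxra, the partner receptor of LXR, was lower than in Th1 in both other conditions, at -1.99 ± 0.34 (adjusted p = 8.7e-05) in Tfh and -2.42 ± 0.34 (adjusted p = 1.92e-05) in Th17. Lpcat3, a phospholipid acyltransferase induced by LXR, was higher in Th17 than in Th1 by 0.60 ± 0.13 (adjusted p = 0.00114).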

How the data were processed

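The 34 genes and the other gene lists were chosen with earlier results of these data known. The authors deposited raw counts of reads for each gene, made with STAR 2.7.2b on the mm10 genome and featureCounts 1.6.4, per the submitters' processing notes. Libraries used the Lexogen SENSE chemistry on 100 ng of RNA, per the labels' protocols. The sources used here do not give the annotation, the strand setting or the handling of reads that match several genes. Names came from a RefSeq table of GRCm38.p6 (25275 IDs) and GENCODE (18), and 1886 IDs stayed unnamed. Named genes held 98.2% of counts, and the 15 single files equalled the columns of the series table. The lowest chi-square per gene between replicates was 9.80, beyond counting noise. The test was run with edgeR 4.0.16 in R 4.3.3 (TMM factors, robust quasi-likelihood, 1 fit of 15 libraries, no covariates, Benjamini-Hochberg adjustment over 12591 genes). The default filter removed 5472 other genes with a count. Standard errors were taken from the F statistic. Log2 CPM for the synthesis and export means used a prior count of 2. Members called without overlap are given in every library. From each further list, up to 2 genes per direction and comparison were named, those with the largest fold change among genes called without overlap and with a mean of at least 10 CPM in the higher condition. A gene that this rule named is not reported here. Alternatives were other scaling factors and filters, DESeq2 1.42.0, limma-voom 3.58.1, a replicate block, a GC correction and leaving out each library.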

Additional observations from a re-analysis of the deposited data

Results flagged for a closer look

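Of 96 groups of 5 libraries tested (32 members in 3 conditions), 6 had 1 library far from the other 4, by a rule that chance meets in about 1 group in 20. Cyp51 was at 224 CPM in Tfh replicate 1, against 150 to 167 in the other Tfh libraries. Soat1 was at 115 CPM in the same library, against 144 to 149. Abcg1 was at 67.2 CPM in Tfh replicate 2, against 39.7 to 44.0. In Tfh replicate 4, Dhcr7 was at 83.5 CPM, against 50.3 to 58.9, and Nr1h2 was at 96.7, against 55.5 to 62.1. Mylip was at 5.05 CPM in Th1 replicate 1, against 1.19 to 2.22 in the other Th1 libraries.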

How the results depend on the processing

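The number of members called, 16, 18 and 14 in Tfh against Th17, Tfh against Th1 and Th17 against Th1, was 16 to 24, 16 to 23 and 14 to 19 over the other settings and 15 to 18, 16 to 21 and 14 to 16 with each library left out in turn. Of these calls, 15, 15 and 14 held in all 26 alternatives, Mylip in Tfh against Th1 held in the 25 in which it was tested (it did not pass the strict filter), and no called member changed sign. The synthesis enzymes lower in these comparisons, counted again after the data were seen, numbered 11 to 16, 10 to 13 and 7 to 8. The number of all genes called in Tfh against Th17 was 2113, with 856 higher and 1257 lower. It was 3494 with the GC correction, with 1778 higher and 1716 lower, and 4012 with the GC correction and the replicate block, with 2005 higher and 2007 lower. The cause was not tested. The synthesis minus export difference, with members under a mean of 10 CPM left out, was 2.06 in Th1, 1.68 in Th17 and 0.54 in Tfh. With each library left out, an alternative chosen after seeing the data, it was 2.81 to 3.09, 2.43 to 2.71 and 0.91 to 1.12. In none of the 26 alternatives did the median log2 fold change of the genes tested move by over 0.1.

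Same-numbered libraries did not all deviate together: the correlation of their deviations was -0.10 to 0.57 (median 0.06) and over 0.1 in 7 of 15 pairs, which held every pair of the libraries numbered 2 and 4. Each of the 15 libraries was matched to its best partner among the 5 of each other condition, and 13 of these 30 matches fell on its own number. No label says what a number stands for, so the main test used no block. Whether same-numbered libraries share a source was not settled. With the replicate number as a block, 19, 20 and 18 members and 2941, 6923 and 5487 genes in all were called, against 2113, 6206 and 4642 without it. Srebf2, not called in either Tfh comparison without the block, was lower with it in Tfh against Th17 (edgeR, adjusted p = 0.0281) and against Th1 (adjusted p = 0.0101), and Srebf1 was higher in Th17 than in Th1 (adjusted p = 0.0126). The block also called Dhcr7 and Sc5d in Tfh against Th17, Insig1 in Tfh against Th1, and Abca1, Cyp51 and Ebp in Th17 against Th1. DESeq2 and limma-voom each added Pmvk and Mylip in Tfh against Th17. DESeq2 also added Hsd17b7 and Insig1 in Tfh against Th1 and Abca1 in Th17 against Th1, and limma-voom lost Dhcr7 in Tfh against Th1.

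Leaving out 1 library also added calls. Pmvk and Sc5d were called in Tfh against Th17 without Th1 replicate 1, and Pmvk without Th17 replicate 2 or Tfh replicate 1. In Tfh against Th1, Hsd17b7 was called without Th1 replicate 3 or Tfh replicates 3 or 5, Insig1 without Th1 replicate 1 or Tfh replicate 5, Pmvk without Th1 or Tfh replicate 1, and Sc5d and Srebf2 without Th1 replicate 1. In Th17 against Th1, Abca1 was called without Th1 replicates 3 or 4, Ebp without Th1 replicate 3 or Th17 replicate 2, and Mvk without Th1 replicate 1. Log2 fold changes that changed sign were all of members not called. In Tfh against Th17, Scap was at -0.0185 with the GC correction, -0.0290 with it and the replicate block and -0.0936 to 0.166 with a library left out. Nr1h2 was at -0.0088, -0.0077 and -0.178 to 0.284, and Insig2 at 0.0066 with both and -0.178 to 0.0144 with a library left out. In Tfh against Th1, Nr1h2 was at 0.0034 with library size only and -0.246 to 0.0961 with a library left out, and Srebf1 at -0.101 to 0.199. In Th17 against Th1, Dhcr7 was at 0.0166 with library size only, 0.0062 with limma-voom, 0.0223 with the replicate block, 0.0172 with the block and GC correction and -0.179 to 0.149 with a library left out. Tm7sf2 was at -0.0282 with DESeq2-style factors, -0.0250 with the strict filter of 50 counts in 5 libraries, -0.0267 with DESeq2 and -0.136 to 0.202 with a library left out. With a library left out, Scap was at -0.0317 to 0.247, Srebf2 at -0.209 to 0.0581, Nr1h2 at -0.367 to 0.0759 and Idi1 at -0.0256 to 0.563. The cause was not tested.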
